A study of Homo sapiens with 12 samples.

Results

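The effect of IGF1 described here is an average over both cell populations of the series. The 6 libraries that received IGF1, in the groups Ctrl+IGF1 and TMEM216+IGF1, were set against the 6 that did not, in the groups Ctrl and TMEM216, so that all 12 libraries of the series entered. Ctrl+IGF1 is the control population of MDA-231-LM2 cells with IGF1 added, and Ctrl is that population without it. TMEM216+IGF1 is the population labelled TMEM216 with IGF1 added, and TMEM216 is that population without it. MDA-231-LM2 is a human breast cancer line derived from MDA-MB-231 by selection for growth in the lung, and all groups share this line. The labels give 3 replicates per group. What the label TMEM216 stands for, whether either population is a clone, and the dose and duration of IGF1 are not stated in the labels. Nor are separate cultures stated for the replicates, and the spread behind each p-value may therefore be technical.

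IGF1 is a peptide growth factor that binds the receptor tyrosine kinase IGF1R, which phosphorylates the adaptor proteins IRS1 and IRS2. From there the signal runs through PI3K and AKT, which hold FOXO transcription factors out of the nucleus and activate mTORC1, and through RAS and ERK. ERK acts on factors bound at the promoters of immediate early genes such as FOS and EGR1, whose transcripts rise within minutes of a growth signal and are quickly degraded. In breast cancer cells IGF1 is known as a signal for survival, growth and migration.

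RNA levels were given as TPM, an abundance scaled to a fixed total in each library, so the sequencing depth is unknown and no counting error can be given. Of 21574 features in the table, 13071 had at least 1 TPM in 3 or more libraries and were tested. Libraries correlated between 0.977 and 0.990 on the log2 scale and no pair was identical. In a principal component analysis, Ctrl+IGF1 replicate 3 and TMEM216 replicate 1 lay apart on the leading axis, with scores of -31.0 and -19.4, while TMEM216 replicate 3 and TMEM216+IGF1 replicate 2 had the highest scores, 18.2 and 18.1. The summed share of ribosomal protein transcripts was 17.1% in that Ctrl+IGF1 library and 12.6% to 14.8% in the 11 remaining ones, and values without that library are given below. All 15 markers of MDA-MB-231 cells were above 1 TPM on average, led by VIM at 6309 TPM. Of 12 markers of luminal breast cells, 5 averaged at least 1 TPM, namely XBP1 (109 TPM), KRT19 (81.7 TPM), ERBB2 (36.02 TPM), EPCAM (13.7 TPM) and GATA3 (7.04 TPM), and the list summed to 217 to 297 TPM with IGF1 and 206 to 291 TPM without it. ESR1, PGR, FOXA1 and CDH1 averaged under 1 TPM, and TFF1 and TFF3 were listed at 0. None of 10 fibroblast markers averaged 1 TPM, with summed levels of 1.21 to 1.60 TPM with IGF1 and 1.03 to 1.74 TPM without it. Among 11 leukocyte markers, whose sum was 172 to 216 TPM with IGF1 and 143 to 214 TPM without it, CD68 made up 191 TPM on average and CD3E and MS4A1 were listed at 0. The transcript of TMEM216, a protein of the ciliary transition zone, stood at 232, 221 and 224 TPM in TMEM216+IGF1 cells and at 163, 222 and 249.6 TPM in TMEM216 cells. In Ctrl+IGF1 cells TMEM216 had 24.6, 27.5 and 29.8 TPM, against 30.1, 24.02 and 25.1 TPM in Ctrl cells. IGF1 left no called difference in TMEM216, with a log2 change of 0.08 (95% interval -0.13 to 0.30, limma adjusted p = 0.952). The cells' own IGF1 transcript was at most 0.233 TPM in any library and was not tested.

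Averaged over both populations, 7 features were called lower with IGF1 and none was called higher. The number called was 1 to 11 when a single library was left out, 2 in an additive model of population and IGF1, and 1, FOS, with the replicate number as a block. Among the 7 features of the fit reported were the immediate early transcription factor genes FOS, FOSB and EGR1 and the vasoconstrictor peptide gene EDN1. The others were the metastasis suppressor gene KISS1, the asparagine synthetase gene ASNS, and ENSG00000273049, a feature with no symbol. These 7 are 0.0536% of the 13071 features tested (limma on log2(TPM + 1), Benjamini-Hochberg adjusted p under 0.05). The falls of the 6 named genes had log2 changes of -1.54 to -0.35, equal to 2.90-fold and 1.28-fold. Changes on this scale understate those of low genes. In bulk RNA, fewer cells that express a gene and less RNA of it per cell cannot be told apart. At an unadjusted p under 0.05 there were 768 features (5.88%), of which 548 (4.19%) were lower and 220 (1.68%) higher with IGF1. The higher ones made up 28.7% of the 768, but 47.7% of 836 after quantile normalization, 48.6% of 816 after median-of-ratios scaling and 46.9% of 753 without Ctrl+IGF1 replicate 3.

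In the plot of change against p over all features, FOS lies apart from the rest. The unadjusted limma p of ASNS, 2.28e-05, is close to the 5.27e-05 of OASL, which did not pass. The median log2 change over all tested features was -0.028, and 62.4% of features were negative. The 95% interval of a feature's change had a median half-width of 0.197 on the log2 scale, and for 93.5% of features it lay wholly within a 1.5-fold change in either direction. A change of at least 1.5-fold was estimated for 105 features, of which 5 passed the threshold, and 27 had a log2 change beyond 1 in size, of which FOS alone passed. At a mean of 5 TPM or more, 10 of 10478 features had a change that large.

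**Figure D1:**
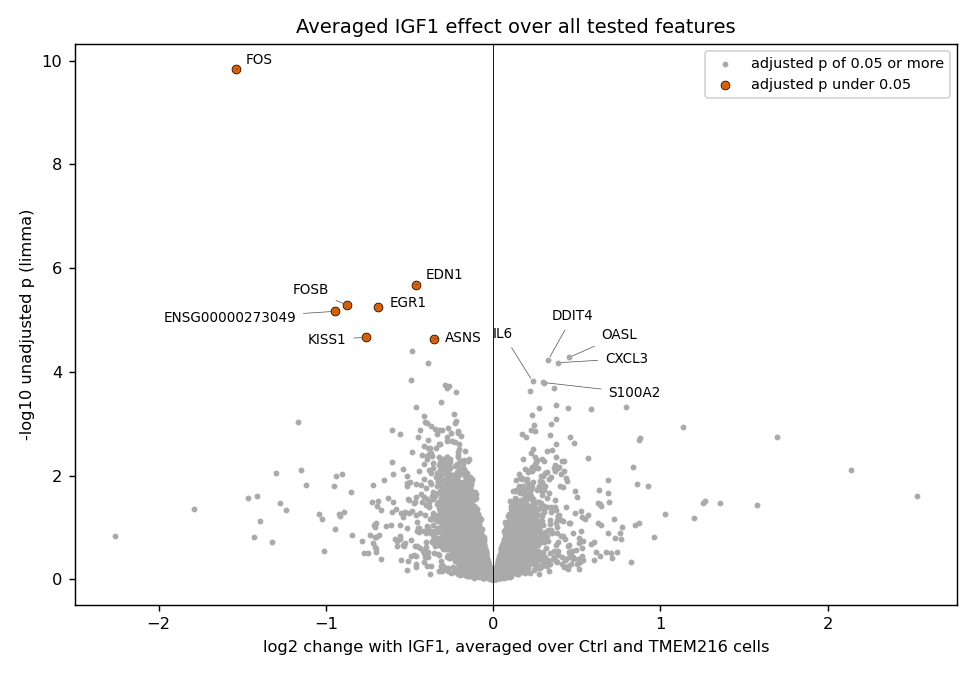
Each point is a tested feature, with its log2 change with IGF1 averaged over Ctrl and TMEM216 cells on the x axis and the -log10 of its unadjusted limma p on the y axis. The 7 orange points past the adjusted threshold all lie left of 0, with FOS at -1.54, while OASL, DDIT4, CXCL3, IL6 and S100A2 have the smallest p on the right side without passing.

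Immediate early genes are switched on through elements close to their start, so the promoters of the 3 that were called are shown before their values. Each is the 250 bases before the transcription start in RefSeq (GRCh38.p14), written 5′ to 3′ on the gene's strand: FOS at chr14:75278578-75278827 (plus strand), FOSB at chr19:45467746-45467995 (plus strand) and EGR1 at chr5:138465229-138465478 (plus strand). Capitals mark the cyclic AMP response element core TGACGT on either strand, and in EGR1 also CArG boxes, the elements bound by serum response factor.
FOS: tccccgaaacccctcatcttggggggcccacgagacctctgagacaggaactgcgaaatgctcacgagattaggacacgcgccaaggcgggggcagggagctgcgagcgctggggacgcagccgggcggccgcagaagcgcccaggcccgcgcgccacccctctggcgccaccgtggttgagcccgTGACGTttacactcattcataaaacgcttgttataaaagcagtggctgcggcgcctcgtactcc
FOSB: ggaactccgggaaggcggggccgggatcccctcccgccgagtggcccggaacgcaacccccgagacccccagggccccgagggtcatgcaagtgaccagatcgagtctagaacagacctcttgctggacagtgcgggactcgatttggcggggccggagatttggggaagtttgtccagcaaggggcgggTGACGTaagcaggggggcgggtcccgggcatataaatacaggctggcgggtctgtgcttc
EGR1: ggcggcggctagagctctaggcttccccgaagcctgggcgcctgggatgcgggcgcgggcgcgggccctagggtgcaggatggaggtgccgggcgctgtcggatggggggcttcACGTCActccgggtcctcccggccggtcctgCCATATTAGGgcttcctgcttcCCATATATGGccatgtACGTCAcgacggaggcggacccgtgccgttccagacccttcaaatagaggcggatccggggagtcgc

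Searched on both strands, the TGACGT core lay 64 to 59 bases before the start of FOS, 60 to 55 before that of FOSB, and 136 to 131 and 67 to 62 before that of EGR1. It also occurred once in the window of KISS1, 45 to 40 bases before the start, and in no window of EDN1 or ASNS. Among all 35116 RefSeq windows of this length 7.10% held it. CArG boxes were found in EGR1 at 105 to 96 bases (CCATATTAGG) and 83 to 74 bases (CCATATATGG) before the start, and in 1.16% of all windows. Bases further from the start than these windows were not searched. The lack of a CArG box in the windows of FOS and FOSB therefore does not show that these genes have none. No matches overlapped. Both elements were added to the search after these sequences had been read, so their presence is a description of the windows only. No window of these 6 genes had an exact match to the AP-1 letters TGANTCA (6.57% of all windows) or the ATF4 letters TGATGNAAT (0.888%). Sites with other letters were not searched, so this does not show that such sites are absent. A window of ASNS holds TGATGAAAC, which differs from the ATF4 letters in the last base only. The FOXO site GTAAACA, which is in 2.98% of windows, was in 1 of the 3 windows of EDN1 and in none of the other 5 genes, and the sterol regulatory element bound by SREBP, in 0.0342% of windows, was in none.

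FOS, the gene of an AP-1 subunit that pairs with JUN proteins, fell most among the named genes. It stood at 69.2, 66.8 and 60.5 TPM in Ctrl+IGF1 libraries, against 108, 101 and 99.7 TPM in Ctrl libraries. In TMEM216+IGF1 libraries it was 11.3, 10.0 and 11.7 TPM, against 76.4, 59.6 and 56.7 TPM in TMEM216 libraries. Every library with IGF1 was below every library without it in the same population, and the TMEM216+IGF1 libraries were the lowest of all. The averaged log2 change was -1.54 (SE 0.077, 95% interval -1.71 to -1.37, limma adjusted p = 1.93e-06). FOS kept its call in each of the 12 fits that left out a library, with log2 changes of -1.58 to -1.47. It lost it (adjusted p = 0.0589) in an additive model of population and IGF1, which counts a difference between the populations as residual spread.

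The size of the FOS change did differ between the populations. Its mean with IGF1 was 0.172 times that without it in TMEM216 cells and 0.637 times in Ctrl cells. The log2 change was -2.43 in TMEM216 cells (adjusted p = 5.24e-07) and -0.64 in Ctrl cells (adjusted p = 0.158), a difference of -1.79 (SE 0.15, limma interaction adjusted p = 0.000965). The averaged value of FOS therefore lies between a change in TMEM216 cells that passed and a smaller one in Ctrl cells that did not.

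FOSB, a close relative of FOS and also an AP-1 subunit, was expressed at a far lower level. Its values were 2.58, 4.14 and 2.88 TPM in Ctrl+IGF1 libraries, against 9.83, 7.86 and 8.41 TPM in Ctrl libraries, and 0.790, 1.02 and 0.603 TPM in TMEM216+IGF1 libraries, against 1.61, 1.74 and 1.44 TPM in TMEM216 libraries. The groups did not overlap in either population. The log2 change was -0.88 (SE 0.11, limma adjusted p = 0.0178). On the linear scale the mean with IGF1 was 0.504 times that without it in TMEM216 cells and 0.368 times in Ctrl cells. The log2 change was -1.22 in Ctrl cells (limma adjusted p = 0.0386) and -0.53 in TMEM216 cells (adjusted p = 0.784). The averaged value of FOSB therefore lies between a change that passed and a smaller one that did not. The difference between the populations, 0.69 on the log2 scale (SE 0.23), did not pass (interaction adjusted p = 0.754). At about 1 TPM in TMEM216 cells, the added pseudocount of 1 is as large as the level itself.

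EGR1, a zinc finger transcription factor gene induced through ERK, had 28.1, 32.1 and 29.1 TPM in Ctrl+IGF1 libraries, against 44.8, 40.8 and 44.5 TPM in Ctrl libraries. In TMEM216+IGF1 libraries it had 11.4, 8.77 and 9.76 TPM, against 21.3, 19.8 and 15.2 TPM in TMEM216 libraries. Within each population, no library with IGF1 reached the range without it. The log2 change was -0.69 (SE 0.089, limma adjusted p = 0.0178), with -0.84 in TMEM216 cells and -0.53 in Ctrl cells, which did not differ past the threshold (interaction adjusted p = 0.754).

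The calls of FOSB and EGR1 rested on most of the libraries together. Each kept its call in 4 of the 12 fits without a library, with adjusted p up to 0.0778 and log2 changes of -0.95 to -0.82 for FOSB and -0.76 to -0.64 for EGR1. FOSB kept it without Ctrl+IGF1 replicate 2 or 3, TMEM216 replicate 3 or TMEM216+IGF1 replicate 2. EGR1 kept it without Ctrl+IGF1 replicate 2 or 3, TMEM216 replicate 3 or TMEM216+IGF1 replicate 1.

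Of 35 listed immediate early and ERK feedback genes, 33 were tested and FOS, FOSB and EGR1 were the 3 that passed. At an unadjusted p under 0.05, 7 were lower and 1 higher, 24.2% of the list beside 5.88% of all features. The other 30 members lay between -0.27 and 0.30 on the log2 scale, and the list's median change was -0.051, beside -0.028 for all features. That median was 0.0055 in TMEM216 cells and -0.135 in Ctrl cells, beside 0.018 and -0.088 for all features. CCN1, a secreted matricellular protein and an early response gene, had the next smallest p at a far higher level. It had 925, 970.1 and 883 TPM in Ctrl+IGF1 libraries, against 1146, 1101 and 1135 TPM in Ctrl libraries, and 772, 726 and 785 TPM in TMEM216+IGF1 libraries, against 949, 904 and 743 TPM in TMEM216 libraries. The groups overlapped in TMEM216 cells, and the log2 change of CCN1 was -0.23 (SE 0.060, limma adjusted p = 0.431).

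**Figure D2:**
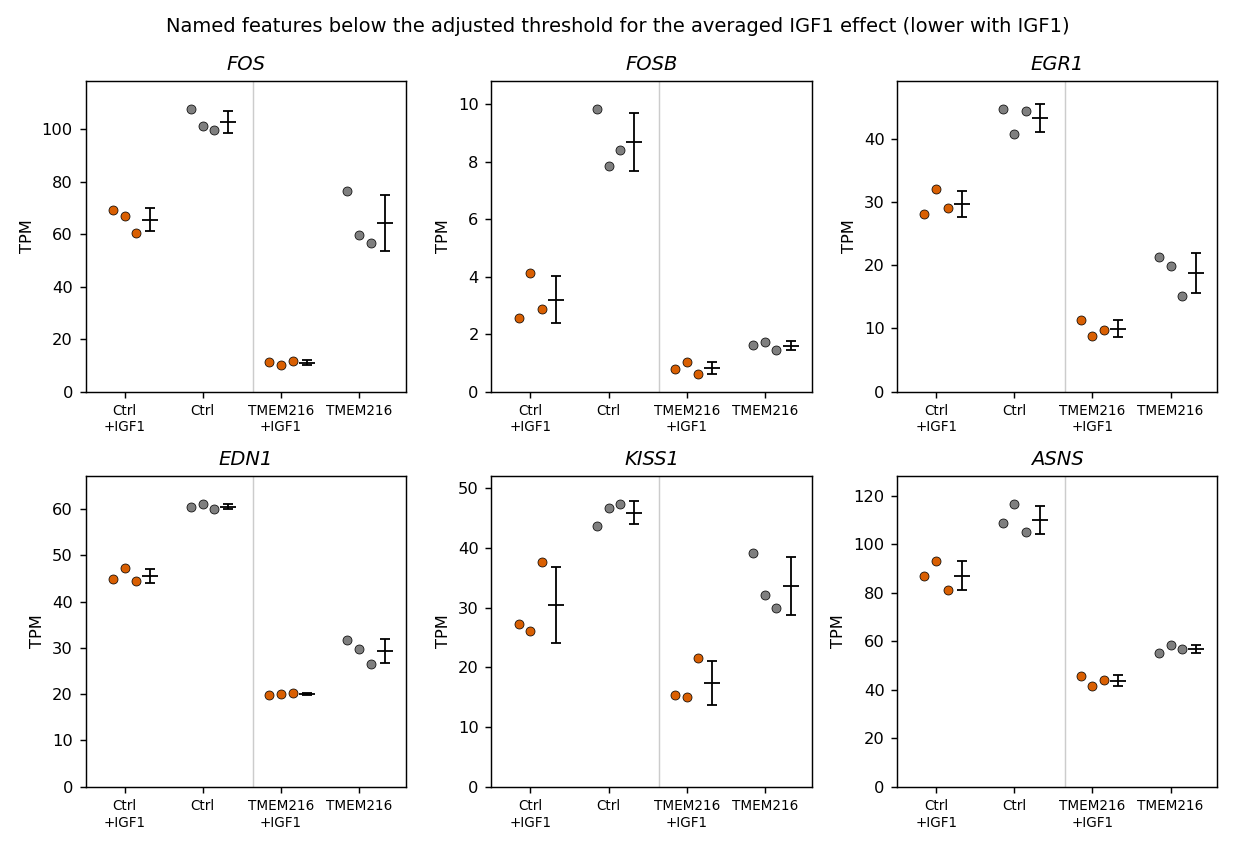
TPM of the 6 named genes past the threshold in each library, with a point per replicate and the mean with its SD (n = 3) beside the points, and the IGF1 group left of the group without it in each population. In every panel and within each population the IGF1 points lie below those without IGF1, and FOS in TMEM216+IGF1 cells stands at 10.0 to 11.7 TPM. The genes were called on these same libraries, so the separation is no separate evidence.

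EDN1, which encodes the precursor of endothelin 1, fell by a smaller step, with little spread among the libraries that received IGF1. It was at 44.9, 47.3 and 44.5 TPM in Ctrl+IGF1 libraries, against 60.5, 61.0 and 59.9 TPM in Ctrl libraries. In TMEM216+IGF1 libraries EDN1 was at 19.9, 20.1 and 20.3 TPM, against 31.8, 29.8 and 26.5 TPM in TMEM216 libraries. Within each population the 2 ranges lay well apart. The log2 change was -0.46 (SE 0.054, 95% interval -0.58 to -0.34, limma adjusted p = 0.0137), or 1.38-fold lower. It was -0.52 in TMEM216 cells and -0.40 in Ctrl cells, with no called difference between them (interaction adjusted p = 0.768). EDN1 passed in 7 of the 12 fits without a library, and not without Ctrl replicate 2 or 3, Ctrl+IGF1 replicate 1, TMEM216 replicate 2 or TMEM216+IGF1 replicate 1 (adjusted p up to 0.0778).

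KISS1, which encodes the kisspeptins and is known as a suppressor of metastasis, had 27.3, 26.1 and 37.7 TPM in Ctrl+IGF1 libraries, against 43.7, 46.6 and 47.3 TPM in Ctrl libraries. It had 15.4, 15.01 and 21.6 TPM in TMEM216+IGF1 libraries, against 39.1, 32.0 and 29.8 TPM in TMEM216 libraries. Replicate 3 was the highest of the IGF1 libraries in both populations, yet still below the range without IGF1 in the same population. The log2 change of KISS1 was -0.76 (SE 0.11, limma adjusted p = 0.0426), with -0.93 in TMEM216 cells and -0.60 in Ctrl cells (interaction adjusted p = 0.754). Its call held in 2 of the 12 fits without a library, those without Ctrl+IGF1 replicate 3 and without TMEM216+IGF1 replicate 3, and the adjusted p of the others reached 0.173. After quantile normalization and after median-of-ratios scaling KISS1 no longer passed.

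ASNS, the enzyme that makes asparagine and a target of the stress factor ATF4, fell by the smallest step of the 6 named genes. It stood at 87.1, 93.0 and 81.1 TPM in Ctrl+IGF1 libraries, against 109, 116 and 105 TPM in Ctrl libraries, and at 45.8, 41.4 and 44.0 TPM in TMEM216+IGF1 libraries, against 55.2, 58.4 and 56.7 TPM in TMEM216 libraries. The ranges with and without IGF1 did not meet in either population. ASNS changed almost equally in TMEM216 cells (log2 -0.37) and Ctrl cells (-0.34), for an average of -0.35 (SE 0.053, limma adjusted p = 0.0426) and a difference of -0.033 (SE 0.11). Its call held in 2 of the 12 fits without a library, those without Ctrl+IGF1 replicate 2 or 3, with adjusted p up to 0.179 in the rest.

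The 7th called feature, ENSG00000273049, was listed at 0 in 9 libraries. It had 1.90, 2.94 and 3.49 TPM in the 3 Ctrl libraries and was listed at 0 in all Ctrl+IGF1, TMEM216+IGF1 and TMEM216 libraries. Its averaged value therefore describes the Ctrl population only, and the interaction passed (limma adjusted p = 0.0445). Its exons overlap those of HOXC5 on the same strand in GENCODE v29, so its reads could be split between both features. The call held in 3 of the 12 fits without a library (adjusted p up to 0.0973).

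Across all 13071 features, the IGF1 changes in both populations had little in common. The Pearson correlation of the change in TMEM216 cells with that in Ctrl cells was 0.013 and the Spearman correlation -0.0084, a description across features, which are not independent replicates. The sign was the same for 44.7% of features. The median change was 0.018 in TMEM216 cells and -0.088 in Ctrl cells. Of the 7 called features, 6 had the same sign and no overlap of libraries in both populations. The calls were made on these same libraries, and the rule for naming called genes asked for no overlap, so this is a description only. Over all tested features, 99 were lower (0.757%) and 28 higher (0.214%) with IGF1 without overlap in both populations. For 90 further features the libraries did not overlap and the signs were opposite. The test of the difference between the populations called FOS and ENSG00000273049 (0.0153% of features), and 703 features (5.38%) had an unadjusted p under 0.05. Tested alone, 2 features passed in TMEM216 cells (0.0153%) and 4 in Ctrl cells (0.0306%).

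**Figure D3:**
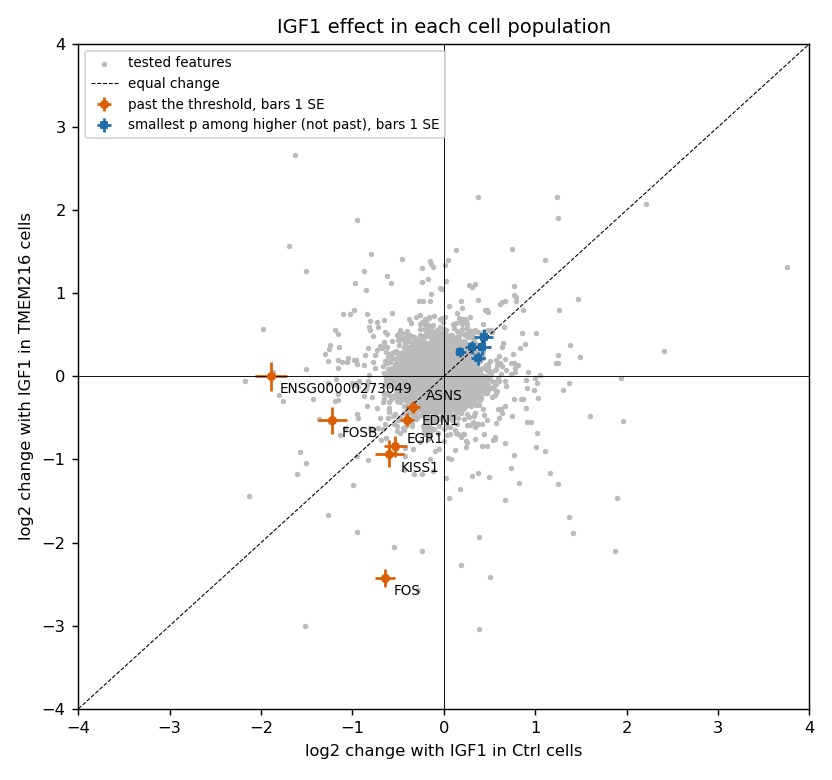
Each point is a tested feature, with its log2 change with IGF1 in Ctrl cells on the x axis and in TMEM216 cells on the y axis, bars of 1 SE on the marked features and a dashed line of equal change. The cloud has no visible slope (Pearson 0.013), and ASNS, EDN1, EGR1 and KISS1 lie near the line. FOS lies far below the line and ENSG00000273049 lies on the horizontal zero line. FOSB, at -1.22 in Ctrl cells and -0.53 in TMEM216 cells, lies above the line.

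No feature higher with IGF1 passed, and the 5 with the smallest p are described as values. OASL, an interferon-induced antiviral protein, had 40.4, 40.2 and 41.5 TPM in Ctrl+IGF1 libraries, against 34.7, 29.1 and 26.3 TPM in Ctrl libraries. In TMEM216+IGF1 libraries it had 59.7, 50.5 and 53.5 TPM, against 42.8, 37.0 and 37.6 TPM in TMEM216 libraries. The IGF1 libraries of OASL were above the others in both populations, and its log2 change was 0.45 (SE 0.074, limma adjusted p = 0.0738, and 0.0359 without Ctrl replicate 1). DDIT4, an inhibitor of mTORC1 induced by stress, had 222, 219 and 204 TPM in Ctrl+IGF1 libraries, against 183, 173 and 165 TPM in Ctrl libraries, and 176, 159.6 and 174 TPM in TMEM216+IGF1 libraries, against 137, 142 and 121 TPM in TMEM216 libraries. The DDIT4 ranges did not overlap either (log2 0.33, SE 0.054, limma adjusted p = 0.0738).

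CXCL3, a chemokine for neutrophils, had 57.4, 58.6 and 63.5 TPM in Ctrl+IGF1 libraries, against 46.6, 42.2 and 44.2 TPM in Ctrl libraries, and 59.7, 50.4 and 54.3 TPM in TMEM216+IGF1 libraries, against 45.5, 45.0 and 38.1 TPM in TMEM216 libraries. Its log2 change was 0.39 (SE 0.065, limma adjusted p = 0.0738). IL6, an inflammatory cytokine, had 222, 210.2 and 232 TPM in Ctrl+IGF1 libraries, against 193, 200.1 and 192 TPM in Ctrl libraries, and 115, 112 and 116 TPM in TMEM216+IGF1 libraries, against 95.6, 93.7 and 89.3 TPM in TMEM216 libraries. Both genes were higher with IGF1 in each population without overlap, IL6 with a log2 change of 0.24 (SE 0.043, limma adjusted p = 0.132) and with exons that overlap STEAP1B on the opposite strand. S100A2, a calcium-binding protein, had 89.2, 80.4 and 99.0 TPM in Ctrl+IGF1 libraries, against 69.5, 66.2 and 69.8 TPM in Ctrl libraries, and 93.3, 88.0 and 91.7 TPM in TMEM216+IGF1 libraries, against 80.4, 75.6 and 77.8 TPM in TMEM216 libraries. Its ranges were apart as well, and the log2 change was 0.30 (SE 0.055, limma adjusted p = 0.132, and 0.0467 without Ctrl+IGF1 replicate 2).

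The receptor axis itself was measured at low to moderate levels. IGF1R, the receptor, had 8.30, 9.06 and 6.16 TPM in Ctrl+IGF1 libraries, against 10.2, 10.5 and 11.3 TPM in Ctrl libraries, and 10.0, 9.92 and 9.18 TPM in TMEM216+IGF1 libraries, against 8.91, 11.3 and 10.7 TPM in TMEM216 libraries. The groups were apart in Ctrl cells and overlapped in TMEM216 cells, and the log2 change was -0.24 (95% interval -0.44 to -0.04, limma adjusted p = 0.790). INSR, the insulin receptor, had 2.80, 2.89 and 3.03 TPM in Ctrl+IGF1 libraries, against 4.24, 4.09 and 3.92 TPM in Ctrl libraries, and 3.32, 3.31 and 2.65 TPM in TMEM216+IGF1 libraries, against 3.20, 3.63 and 3.90 TPM in TMEM216 libraries. INSR followed the same order, apart in Ctrl cells only, with a log2 change of -0.27 (95% interval -0.45 to -0.09, limma adjusted p = 0.619). The adaptor IRS1 ranged over 23.5 to 33.6 TPM in the IGF1 libraries and 23.8 to 33.3 TPM in the others, with a log2 change of -0.05 (95% interval -0.26 to 0.15, limma adjusted p = 0.978). For IRS2 the interval was -0.36 to 0.03 around -0.17 (limma adjusted p = 0.854).

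Binding proteins hold IGF1 in the medium and limit its access to the receptor. IGFBP3 had 49.0, 50.2 and 45.0 TPM in Ctrl+IGF1 libraries, against 59.2, 61.5 and 60.9 TPM in Ctrl libraries, and 54.6, 54.7 and 56.7 TPM in TMEM216+IGF1 libraries, against 68.3, 66.6 and 59.4 TPM in TMEM216 libraries. It was lower without overlap in both populations but did not pass (log2 -0.27, SE 0.052, limma adjusted p = 0.136). IGFBP1 (log2 -0.26, adjusted p = 0.603) and IGFBP7 (log2 -0.13, adjusted p = 0.701, with exons that overlap POLR2B on the opposite strand) overlapped between groups in at least 1 population. Of 22 listed receptors, substrates and binding proteins, 19 were tested and none passed. At an unadjusted p under 0.05, 5 were lower and none higher, 26.3% of the list beside 5.88% of all features. The list's median was -0.034, near the -0.028 of all features, and 0.0015 after quantile normalization. It was 0.038 in TMEM216 cells and -0.15 in Ctrl cells, beside 0.018 and -0.088 for all features. Without Ctrl+IGF1 replicate 3 it was -0.0022, beside -0.00043 for all features.

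**Figure D4:**
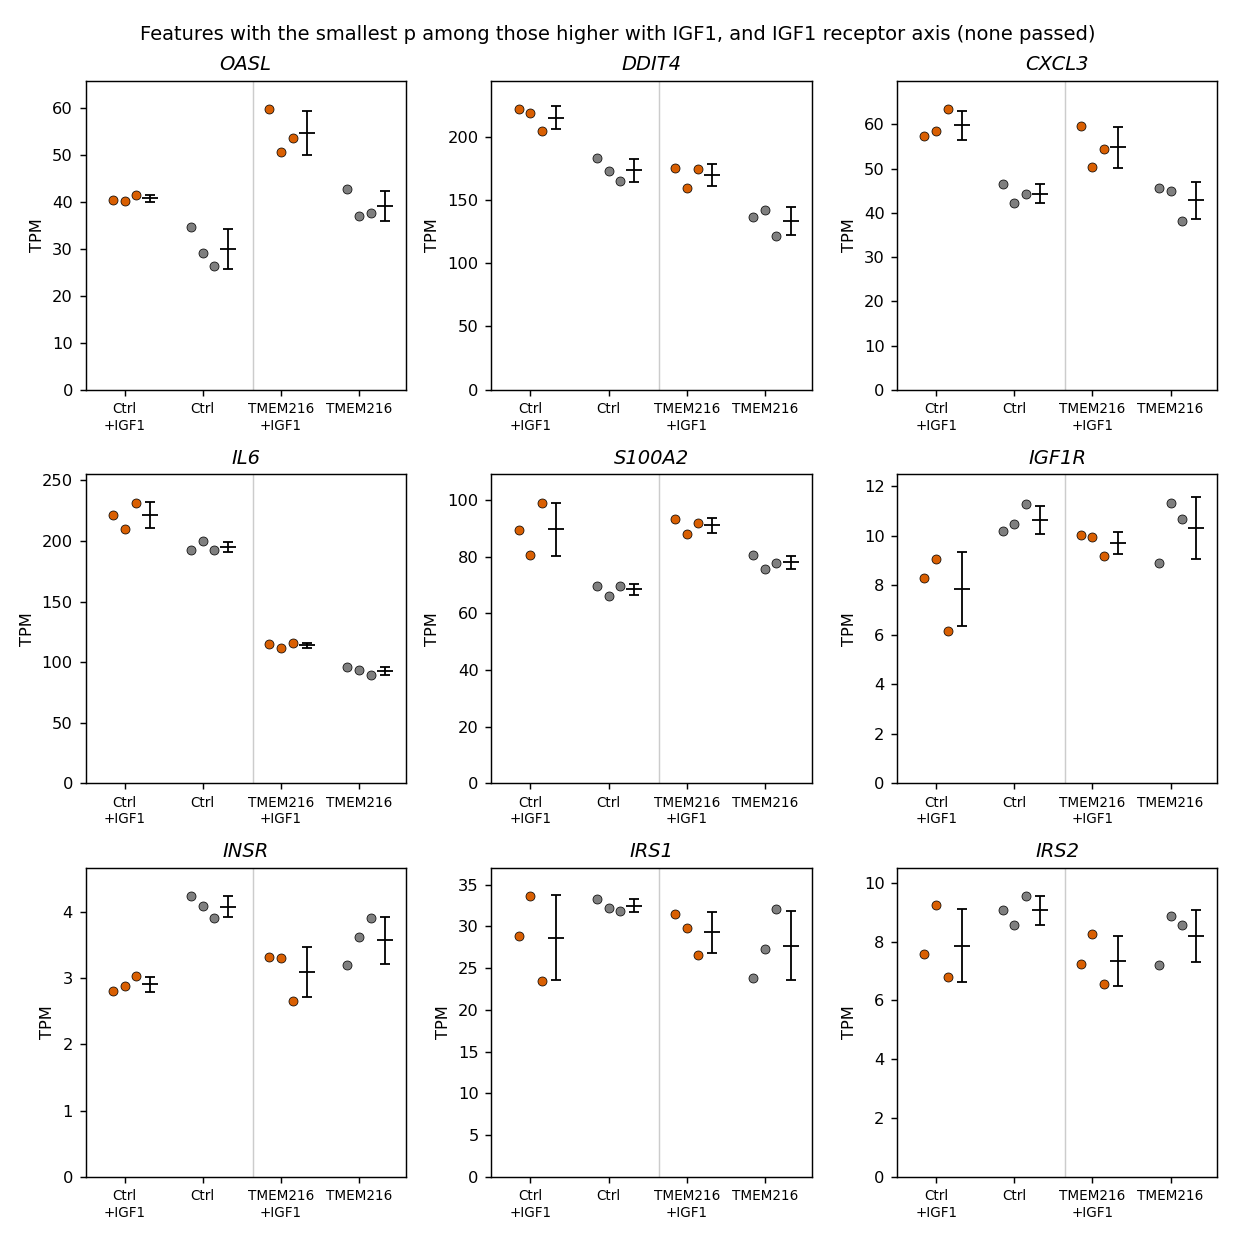
TPM in each library of the 5 genes with the smallest p among those higher with IGF1 and of IGF1R, INSR, IRS1 and IRS2, with a point per replicate, the mean with its SD (n = 3) beside it, and the IGF1 group left of the group without it. OASL, DDIT4, CXCL3, IL6 and S100A2 are higher with IGF1 in both populations, and IGF1R and INSR are apart in Ctrl cells only.

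Downstream of the receptor, the lists of PI3K, AKT and mTORC1 genes and of FOXO factors and targets had no member past the threshold. The median log2 change of 28 tested pathway genes (31 listed) was -0.054. It was 0.015 in TMEM216 cells and -0.11 in Ctrl cells, beside 0.018 and -0.088 for all features. At an unadjusted p under 0.05, 2 were higher and 1 lower (10.7% beside 5.88% of all features). DDIT4, described above, was among the higher ones. The lower one was SGK1, a kinase related to AKT (log2 -0.19, limma adjusted p = 0.825). TSC1, which restrains mTORC1, had a log2 change of -0.13 (adjusted p = 0.840). Of 33 tested FOXO genes (36 listed), 7 were lower and 1 higher at an unadjusted p under 0.05 (24.2% beside 5.88%). Their median was -0.068, with 0.025 in TMEM216 cells and -0.15 in Ctrl cells, beside 0.018 and -0.088 for all features. INSR, itself a FOXO target, had the smallest p. CDKN1A, a cell cycle inhibitor, was the higher one (log2 0.22, adjusted p = 0.729). GADD45B, a stress response gene (log2 -0.15, adjusted p = 0.774), and ERBB3, a receptor of the EGF receptor family (log2 -0.38, adjusted p = 0.825), were among the lower ones.

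Among ATF4 amino acid response genes, of which 32 of 34 were tested, ASNS was the 1 that passed. At an unadjusted p under 0.05, 5 were lower and 2 higher, with DDIT4 among the higher ones, 21.9% of the list beside 5.88% of all features. The other 31 lay between -0.38 and 0.33, and the list's median was -0.069. It was -0.00053 in TMEM216 cells and -0.12 in Ctrl cells, beside 0.018 and -0.088 for all features. PSAT1, an enzyme of serine synthesis, had 239, 263 and 226 TPM in Ctrl+IGF1 libraries, against 294, 293 and 284 TPM in Ctrl libraries, and 186, 194 and 180 TPM in TMEM216+IGF1 libraries, against 195, 209 and 206 TPM in TMEM216 libraries. PCK2, the mitochondrial phosphoenolpyruvate carboxykinase, had 36.5, 41.2 and 38.6 TPM in Ctrl+IGF1 libraries, against 47.2, 44.8 and 48.4 TPM in Ctrl libraries, and 18.4, 18.3 and 18.5 TPM in TMEM216+IGF1 libraries, against 19.8, 21.5 and 19.8 TPM in TMEM216 libraries. Both were lower without overlap in both populations and did not pass (PSAT1 log2 -0.19, limma adjusted p = 0.379, and PCK2 log2 -0.20, adjusted p = 0.431).

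Lipid synthesis genes gave few values outside the background. Of 25 tested genes of cholesterol synthesis, 1 had an unadjusted p under 0.05, ACAT2, which makes acetoacetyl-CoA (log2 -0.11, limma adjusted p = 0.827), 4.00% of the list beside 5.88% of all features. Their median was 0.0056, with 0.10 in TMEM216 cells and -0.091 in Ctrl cells, beside 0.018 and -0.088 for all features. HSD17B7 (log2 0.16) and DHCR7 (log2 0.12), enzymes of the later steps, and STARD4, a sterol carrier (log2 -0.11), had the next smallest p. Of 21 tested genes of fatty acid synthesis (22 listed), 1 had an unadjusted p under 0.05 (4.76%), and the median of -0.020 turned to 0.0083 after quantile normalization, 0.013 after median-of-ratios scaling and 0.027 without Ctrl+IGF1 replicate 3. That gene was SCD, the desaturase that makes oleate, with 29.8, 32.8 and 21.7 TPM in Ctrl+IGF1 libraries, against 27.0, 26.7 and 29.2 TPM in Ctrl libraries, and 67.3, 68.3 and 61.9 TPM in TMEM216+IGF1 libraries, against 38.5, 45.4 and 51.3 TPM in TMEM216 libraries. SCD was higher without overlap in TMEM216 cells and overlapped in Ctrl cells (averaged log2 0.27, limma adjusted p = 0.733, interaction 0.54, adjusted p = 0.754). PNPLA3 (log2 -0.25), a lipid droplet acylhydrolase whose exons overlap SAMM50, SREBF1 (log2 0.12), the gene of SREBP1, and FADS2 (log2 0.20), a desaturase whose exons overlap FEN1, followed, none past the threshold.

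Cell cycle genes were measured in 2 lists, and none of their 30 G1/S and 31 G2/M members passed. At an unadjusted p under 0.05, 3 G1/S genes (10.0%) and 3 G2/M genes (9.68%) were lower and none higher, beside 5.88% of all features in either direction and 4.19% lower. The G1/S median was -0.086, with -0.0096 in TMEM216 cells and -0.13 in Ctrl cells. For G2/M it was -0.074, with 0.0028 in TMEM216 cells and -0.15 in Ctrl cells. The medians of all features were -0.028, 0.018 and -0.088 in the same order. Without Ctrl+IGF1 replicate 3 the medians were -0.045 for G1/S, -0.038 for G2/M and -0.00043 for all features. PCNA, the sliding clamp of DNA replication, had 466, 484 and 473 TPM in Ctrl+IGF1 libraries, against 498, 497 and 517 TPM in Ctrl libraries, and 500.5, 488 and 506 TPM in TMEM216+IGF1 libraries, against 585, 572 and 519 TPM in TMEM216 libraries. It did not overlap in either population, nor did KIF23, a kinesin of cytokinesis (PCNA log2 -0.13, limma adjusted p = 0.707, and KIF23 log2 -0.18, adjusted p = 0.711). CDK2 (log2 -0.14), the kinase of S phase entry, CCNE2 (log2 -0.19), its cyclin E2, CDC25C (log2 -0.26), a phosphatase that activates CDK1, and CDK1 itself (log2 -0.13) were the other lower ones, with adjusted p of 0.619 to 0.828.

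NF-kB and cytokine genes, of which 26 of 30 were tested, had no member past the threshold. At an unadjusted p under 0.05, 6 were higher and none lower, 23.1% of the list beside 5.88% of all features (1.68% higher), and the median was 0.097 beside -0.028 for all features. The median was 0.14 in TMEM216 cells and -0.047 in Ctrl cells, above the median of all features in each. CSF3, the granulocyte colony-stimulating factor and abundant in these cells, had 1431, 1358 and 1302 TPM in Ctrl+IGF1 libraries, against 1352, 1329 and 1311 TPM in Ctrl libraries, and 1392, 1360.5 and 1493 TPM in TMEM216+IGF1 libraries, against 1080.3, 1091 and 1027 TPM in TMEM216 libraries. CSF3 was apart in TMEM216 cells (log2 0.41) and overlapped in Ctrl cells (0.034), with an averaged log2 change of 0.22 (limma adjusted p = 0.146). PTGS2, the inducible cyclooxygenase, was likewise apart in TMEM216 cells only (averaged log2 0.34, adjusted p = 0.338), and passed after quantile normalization (adjusted p = 0.0332).

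Interferon response genes, all 29 of which were tested, had 4 higher and none lower at an unadjusted p under 0.05 (13.8%, beside 5.88% of all features and 1.68% higher), and none passed. Their median was 0.061, with 0.12 in TMEM216 cells and -0.035 in Ctrl cells, beside 0.018 and -0.088 for all features. IFI6, an interferon-induced mitochondrial protein, had 23.0, 20.0 and 20.7 TPM in Ctrl+IGF1 libraries, against 14.9, 17.5 and 14.3 TPM in Ctrl libraries, and 17.7, 17.4 and 16.1 TPM in TMEM216+IGF1 libraries, against 13.0, 13.8 and 14.4 TPM in TMEM216 libraries. IFI6 was higher without overlap in both populations (log2 0.36, limma adjusted p = 0.136), as was IFIT1, which binds viral RNA (log2 0.22, adjusted p = 0.357). ISG15, a ubiquitin-like modifier (log2 0.37, adjusted p = 0.589), and IFI44 (log2 0.19, adjusted p = 0.628) overlapped in at least 1 population.

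Hypoxia genes, all 24 tested, had 5 higher and 1 lower at an unadjusted p under 0.05 (25% beside 5.88% of all features). None passed the threshold, and their median was 0.066. It was 0.17 in TMEM216 cells and -0.030 in Ctrl cells, beside 0.018 and -0.088 for all features. CA9, a carbonic anhydrase induced by HIF1, had 1.102, 1.90 and 1.46 TPM in Ctrl+IGF1 libraries, against 0.766, 0.407 and 0.500 TPM in Ctrl libraries, and 2.47, 1.76 and 3.69 TPM in TMEM216+IGF1 libraries, against 0.484, 0.830 and 1.49 TPM in TMEM216 libraries. These low values did not overlap, and the log2 change was 0.79 (SE 0.17, limma adjusted p = 0.235), while exons of CA9 overlap ARHGEF39 on the opposite strand. ANGPTL4, an inhibitor of lipoprotein lipase, had a log2 change of 0.29 (adjusted p = 0.596). ADM, which encodes the peptide adrenomedullin, was the lower one (log2 -0.24, adjusted p = 0.279), with 141, 139 and 149.7 TPM in TMEM216+IGF1 libraries, against 205, 194 and 173 TPM in TMEM216 libraries, and 198, 185 and 182 TPM in Ctrl+IGF1 libraries, against 196, 194 and 203 TPM in Ctrl libraries. ADM was apart in TMEM216 cells and overlapped in Ctrl cells.

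YAP and TEAD factors and targets had the lowest median of the 44 lists. All 24 were tested, 22 had a negative change, and none passed after adjustment. At an unadjusted p under 0.05, 10 were lower, 41.7% of the list beside 5.88% of all features (4.19% lower). The lists were chosen with earlier results of these data known, so this share is a description only. The median was -0.15, with -0.12 after median-of-ratios scaling and -0.11 without Ctrl+IGF1 replicate 3. It was -0.066 in TMEM216 cells and -0.23 in Ctrl cells, beside 0.018 and -0.088 for all features. ANKRD1, a nuclear ankyrin repeat protein, had 457, 461 and 419 TPM in Ctrl+IGF1 libraries, against 508, 521 and 525 TPM in Ctrl libraries, and 303, 299 and 306 TPM in TMEM216+IGF1 libraries, against 365, 360.5 and 336 TPM in TMEM216 libraries. It was lower without overlap in both populations, by like amounts (log2 -0.22 in each), with a limma adjusted p of 0.146. ARHGEF17, a guanine nucleotide exchange factor, was apart in both populations too (log2 -0.35, adjusted p = 0.357). CCN2, a secreted relative of CCN1, had a log2 change of -0.27 (adjusted p = 0.630), with -0.078 in TMEM216 cells and -0.47 in Ctrl cells. CCN1 and CCN2 also belong to the immediate early list.

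Genes linked to lung metastasis in the LM2 line, a list defined by this line's origin, had 16 members tested. KISS1, the suppressor gene that fell, belonged to them, so the list's values need not share a direction for metastasis. At an unadjusted p under 0.05, 5 others were higher, as were 1.68% of all features. In either direction 37.5% of the list had such a p, beside 5.88% of all features. The median was 0.054, with 0.19 in TMEM216 cells and -0.062 in Ctrl cells, beside 0.018 and -0.088 for all features. PLAAT4, a phospholipase that was formerly called RARRES3, had 15.6, 13.5 and 19.6 TPM in Ctrl+IGF1 libraries, against 12.8, 10.7 and 14.0 TPM in Ctrl libraries, and 24.8, 24.2 and 22.7 TPM in TMEM216+IGF1 libraries, against 14.5, 16.1 and 17.3 TPM in TMEM216 libraries. PLAAT4 overlapped in Ctrl cells and was apart in TMEM216 cells (log2 0.45, SE 0.095, limma adjusted p = 0.235). PTGS2 and ANGPTL4, described above, had the next smallest p.

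**Figure D5:**
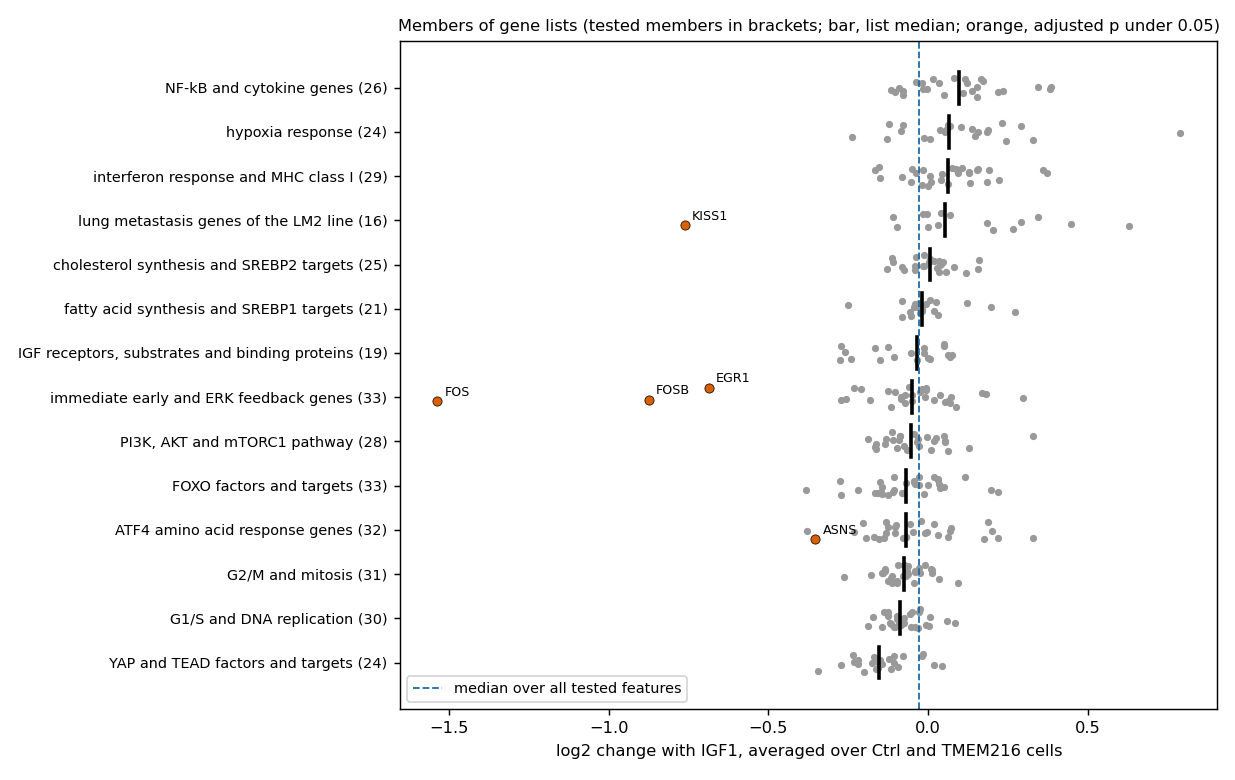
Each point is a tested list member at its log2 change with IGF1, averaged over both populations, with a row per list, the list median as a black bar and members past the threshold in orange. The dashed line marks the median of all features at -0.028, the YAP and TEAD row lies furthest left by its median of -0.15, and FOS, FOSB, EGR1, ASNS and KISS1 are the 5 members that passed.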

How the data were processed

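The authors deposited TPM values for each library, made with HISAT2, StringTie and RSEM, per the submitters' processing notes. Not given in the sources used here are tool versions and roles, genome build, annotation and strandedness. Per the labels' protocols, libraries were made from total RNA with an Illumina TruSeq kit. TPM holds no read counts, so no count test was used.

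The 12 columns were taken as log2(TPM + 1), and features with at least 1 TPM in 3 libraries were kept (13071, of which 519 are assembled features with MSTRG names). All 12 libraries were fitted in limma 3.58.1 (R 4.3.3) with a mean for each of the 4 groups and variances moderated along a mean-variance trend. The averaged IGF1 effect is the mean of Ctrl+IGF1 and TMEM216+IGF1 minus the mean of Ctrl and TMEM216. Tests were two-sided, and adjusted p is the Benjamini-Hochberg value over all tested features, with a threshold of 0.05. SE and 95% intervals are limma's moderated ones. The fit was tested on simulated data.

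The 44 gene lists and the comparison were chosen with earlier results of these data known, so lists are given by counts and medians with no test. Named genes are those past the threshold with a mean of at least 5 TPM, a symbol and no overlap of libraries in either population, or the 5 with the smallest p in a direction where none passed, with IGF1R, IRS1, IRS2, INSR and TMEM216, of each described list the 4 members of smallest p, and features past the interaction threshold. Overlap of exons was looked up in GENCODE v29 for 58 named features. On the same strand 4 overlapped another tested feature, and on the opposite strand 10 did, among them ACAT2, SREBF1, CDK2, CCNE2 and CDC25C, whose reads could be shared. Promoter windows are from RefSeq, GRCh38.p14. The alternatives were quantile normalization, no filter, no trend, a pseudocount of 0.1, median-of-ratios scaling, a floor of 5 TPM in place of 1, an additive model, the replicate number as a block, each population alone, each library left out in turn, and both libraries that lay apart left out together. Plots used matplotlib 3.10.9 under Python 3.11.15. Some items are not reported here.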

Additional observations from a re-analysis of the deposited data

Results flagged for a closer look

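The IGF1 effect differed between the populations for 2 features, by the limma interaction test over all 13071 features. For FOS the change in TMEM216 cells minus that in Ctrl cells was -1.79 on the log2 scale (95% interval -2.12 to -1.45, limma adjusted p = 0.000965), and FOS was called in all 21 fits that had this term. For ENSG00000273049 the difference was 1.89 (limma adjusted p = 0.0445). It was above 0 TPM only in the 3 Ctrl libraries, at 1.90 to 3.49 TPM, and its call was lost in most of those fits.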

How the results depend on the processing

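The count of 7 features, all lower with IGF1, was 2 in the additive model (EDN1 and EGR1), 1 with the replicate number as a block (FOS), 4 with both libraries that lay apart left out, 4 within Ctrl cells only and 2 within TMEM216 cells only. Leaving out 1 library gave 1 to 11 features. It was 1 without Ctrl replicate 2 or 3, 2 without Ctrl+IGF1 replicate 1, TMEM216 replicate 1 or 2 or TMEM216+IGF1 replicate 1, 3 without TMEM216+IGF1 replicate 2 or 3, 4 without TMEM216 replicate 3 and 11 without Ctrl+IGF1 replicate 3. The cause was not tested. Both scalings, no filter, no trend, a pseudocount of 0.1 and a floor of 5 TPM gave 5 to 8. Besides single libraries, calls ended for FOS, FOSB, KISS1, ASNS and ENSG00000273049 in the additive model, for KISS1 and ASNS without the trend, for KISS1 and EGR1 without the filter, for KISS1 under both scalings, for ENSG00000273049 with a pseudocount of 0.1, for FOSB, EGR1, ASNS and ENSG00000273049 with both libraries left out, and for all but FOS under the block. The count of features higher with IGF1, 0 in the fit reported, was 1 after quantile normalization and 0 to 2 with 1 library left out. The interaction's count of 2 was 1 with median-of-ratios scaling, a floor of 5 TPM, quantile normalization, a pseudocount of 0.1, the replicate block and both libraries left out, and 1 to 3 with 1 library left out. The labels do not say whether replicate numbers pair the libraries. With 3 libraries per group, the following correlations cannot decide it. Of 18 pairs with the same number, 4 had deviations that correlated above 0.1 (range -0.286 to 0.165), and 5 of 12 libraries correlated best with their own number.

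Small uncalled changes turned sign in a few settings. IRS1 (-0.11 to 0.014 with 1 library left out) was 0.014 without Ctrl+IGF1 replicate 3, 0.0019 without TMEM216 replicate 3 and 0.085 within TMEM216 cells. The TMEM216 transcript (-0.0062 to 0.15 with 1 library left out) was -0.0062 without TMEM216 replicate 1 and -0.038 with both libraries left out. Within Ctrl cells DHCR7 was -0.017, SREBF1 -0.0097 and FADS2 -0.11. Without Ctrl+IGF1 replicate 3, the median of 11 of the 44 lists turned sign, 1 of them among the 14 described (fatty acid synthesis). The median over all features was -0.00043 without that library. No called gene turned sign in a setting run. TPM gives no depth, so how far counting error limits low features such as FOSB and CA9 is unknown.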

Other observations

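Some lists not described above had medians away from the -0.028 of all features, with no member past the threshold for the averaged effect. The 17 SR splicing factors, which choose exons during splicing, had a median log2 change of -0.12 (-0.084 without Ctrl+IGF1 replicate 3). Of these, 4 were lower and none higher with IGF1 at an unadjusted p under 0.05 (23.5% beside 5.88%). SRSF1, with an averaged log2 change of -0.49, was called lower in the contrast within Ctrl cells. The 15 circadian clock genes had a median of 0.11 (0.12 without Ctrl+IGF1 replicate 3), with 3 higher and 1 lower at an unadjusted p under 0.05 (26.7% beside 5.88%). The 84 ribosomal protein genes had a median of 0.049, with -0.073 in TMEM216 cells and 0.17 in Ctrl cells, and the 78 nuclear genes of oxidative phosphorylation one of 0.062, with -0.014 in TMEM216 cells and 0.15 in Ctrl cells. Without Ctrl+IGF1 replicate 3, whose ribosomal protein share was the highest, the median of the ribosomal protein genes was -0.014 and that of the oxidative phosphorylation genes 0.018. The 35 genes of the ciliary transition zone and intraflagellar transport had a median of -0.067 (-0.0095 without Ctrl+IGF1 replicate 3), and 2 were lower and none higher at an unadjusted p under 0.05 (5.71%).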
